A study of Mus musculus with 9 samples.

Results

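The genes described here are the transcription factor NRF2 (gene Nfe2l2), its regulators, and the enzymes and transporters of the glutathione, thioredoxin, peroxiredoxin and NADPH systems, many of which NRF2 controls. They were picked by gene symbol from a list of members of these systems, chosen with earlier results of these data known. All 35 symbols were found among the 26157 genes of the deposited table. All 35 also passed the filter on low values that left 14207 genes for testing. The series holds 9 poly-A RNA-seq libraries of J774A.1, an established mouse macrophage cell line, in 3 groups of 3. The Ctrl group was cultured normally, the M2 group received IL-4 and IL-13 at 10 ng/mL, and the Q11 group received Q11 together with IL-4 and IL-13. The title names Q11 as a CYP2E1 inhibitor, CYP2E1 being a cytochrome P450. Its dose, the cytokine dose of that group and the duration of treatment are not given in the sources used here, and no group with Q11 alone was analysed here.

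Levels are in TPM, a measure of transcript abundance scaled for gene length and library size, that can be compared between genes. Differences are given on the log2(TPM + 1) scale, which understates the change of low genes, with limma's 95% interval. A gene is said to have risen or fallen where limma's p was below 0.05 after Benjamini-Hochberg adjustment over the 14207 genes. The labels do not say that the 3 libraries of a group came from separate cultures, so these p-values measure only the spread between these libraries.

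The Q11 libraries labelled 2 and 3 were not independent of each other. Reads recovered from the TPM came to 15815847 to 17095787 in 8 libraries and to 32193523 in Q11 replicate 2. Of 19252 genes read in Q11 replicate 3, only 11 had fewer reads in Q11 replicate 2, against 1929 to 2413 for any other library. Calls are therefore also given after the reads held by Q11 replicate 3 had been removed from Q11 replicate 2, called here shared reads separated. The cytokine labels were checked on genes of the M2 response. Mrc1 averaged 19.6 TPM in Ctrl, 87.3 TPM in M2 and 84.3 TPM in Q11, and Mgl2 averaged 132, 1004 and 957 TPM. Of the other 4 such genes listed, Clec10a averaged 75.0, 223 and 211 TPM. Arg1 was low throughout (0.302, 3.56 and 2.17 TPM) but rose in M2 against Ctrl (limma adjusted p = 0.0228). Retnla and Chil3 were also low, both under 1 TPM in each group. All 9 macrophage markers were read in every library, at 11.8 to 7140 TPM. Their sum was lower in M2 (7314 to 7872 TPM) than in Ctrl (11060 to 11450 TPM), mainly through Lyz2 (6859 to 3595 TPM in the group means). Mpeg1 (794 to 506 TPM), Ptprc (89.9 to 70.6 TPM) and Itgam (122 to 90.9 TPM) also fell, while Csf1r, Adgre1, Cd68, Spi1 and Fcgr1 did not pass the test. Of 14 markers of other cell types found in the table, 10 stayed below 1 TPM in every library. Cyp2e1, the gene of the named Q11 target, was listed as a hepatocyte marker and was 1 of these 10, at 0 to 0.0927 TPM. The highest of the 14 was the neutrophil gene S100a8, at up to 38.0 TPM. The 14 summed to 31.8 to 41.6 TPM in Ctrl, 19.9 to 33.1 TPM in M2 and 19.9 to 22.6 TPM in Q11. What part, if any, these shifts have in the results below was not tested. In RNA from a whole culture, fewer cells of a kind and less RNA per cell cannot be told apart.

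NRF2 is a basic leucine zipper factor that is continuously made and destroyed. In unstressed cells the adaptor KEAP1 holds it for ubiquitination by a CUL3 ligase. Oxidants and electrophiles modify cysteines of KEAP1, so that newly made NRF2 escapes, pairs with small MAF proteins and binds antioxidant response elements in the promoters of its target genes. Much of its control is therefore on the protein, which RNA-seq does not measure. In macrophages the target enzymes detoxify peroxides, keep glutathione and thioredoxin reduced and supply the NADPH that both need.

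The core of the antioxidant response element, TGACNNNGC (GCNNNGTCA on the other strand), was searched in RefSeq promoter windows of 300 bases, 250 before and 50 after each start (build GRCm38.p6). A window was found for 31 of the 35 genes, and none for Abcc1, Gsr, Prdx6 and Gclc. The core was in a window of 11 of the 31 genes, and in 11 of their 41 windows (26.8%), against 12.4% of 32851 windows of all genes. The list was drawn up partly from known NRF2 targets, so this share describes the list and is no test. Of the 13 genes with a window that fell or rose in any comparison below, 5 held the core, and of the 18 that did not pass in any comparison, 6 did. The 11 sites are shown with 10 bases on each side, 5′ to 3′ on the gene's own strand, with the core in capitals, so that they can be compared. The first 5 belong to genes that passed in at least 1 comparison.
Nfe2l2, chr2:75704885-75704913, minus strand: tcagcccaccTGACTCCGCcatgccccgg
Blvra, chr2:127070598-127070626, plus strand: cacgggaattGCTCGGTCAaggctccgcc
Srxn1, chr2:152105542-152105570, plus strand: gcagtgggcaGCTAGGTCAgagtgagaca
Prdx1, chr4:116685456-116685484, plus strand: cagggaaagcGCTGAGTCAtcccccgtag
Me1, chr9:86695902-86695930, minus strand: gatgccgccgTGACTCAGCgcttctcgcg
Gclm, chr3:122245413-122245441, plus strand: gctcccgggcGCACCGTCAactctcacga
Pgd, chr4:149166061-149166089, minus strand: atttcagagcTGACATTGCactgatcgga
Mgst1, chr6:138140461-138140489, plus strand: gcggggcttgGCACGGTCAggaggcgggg
Txnrd1, chr10:82859104-82859132, plus strand: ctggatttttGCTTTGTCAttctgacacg
Sod1, chr16:90220696-90220724, plus strand: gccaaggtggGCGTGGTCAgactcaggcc
G6pdx, chrX:74428919-74428947, minus strand: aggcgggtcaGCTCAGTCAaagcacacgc
Only the cores of Prdx1 and Me1 also held the letters TGACTCA, the AP-1 heptamer, read on either strand. The Prdx1 site began 133 bases before the RefSeq start, the Nfe2l2 site 240 bases before it and the Blvra site 49 bases before it. The Me1 site overlapped the start, and those of Srxn1 and Pgd lay after it.

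For the 3 genes that fell and had the core upstream of the start, the bases before the start are shown in full, again with the core in capitals. The Prdx1 stretch ends at 195 bases, where the GENCODE M21 gene begins.
Prdx1, chr4:116685349-116685543, plus strand: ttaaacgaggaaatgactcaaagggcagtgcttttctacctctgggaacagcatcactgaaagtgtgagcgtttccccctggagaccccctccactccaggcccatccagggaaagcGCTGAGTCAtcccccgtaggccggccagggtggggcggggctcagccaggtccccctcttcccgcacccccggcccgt
Nfe2l2, chr2:75704664-75704913, minus strand: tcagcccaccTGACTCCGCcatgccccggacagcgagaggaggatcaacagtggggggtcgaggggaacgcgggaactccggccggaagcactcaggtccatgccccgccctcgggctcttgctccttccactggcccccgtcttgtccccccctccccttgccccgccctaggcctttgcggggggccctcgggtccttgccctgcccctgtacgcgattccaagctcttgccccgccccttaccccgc
Blvra, chr2:127070407-127070656, plus strand: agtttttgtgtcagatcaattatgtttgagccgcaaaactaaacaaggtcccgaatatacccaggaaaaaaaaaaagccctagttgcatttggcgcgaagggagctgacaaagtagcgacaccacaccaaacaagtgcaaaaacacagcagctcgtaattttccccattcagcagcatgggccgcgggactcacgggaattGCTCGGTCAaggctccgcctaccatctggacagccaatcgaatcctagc
No binding or chromatin was measured in this series, so a match of letters here is a description of the window only.

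The levels of the 35 genes differed widely. Txn1 (thioredoxin) was the highest, with a mean of 1187 TPM over the 9 libraries. It was followed by Prdx1 at 840 TPM, Gpx1 at 807 TPM and Taldo1 at 674 TPM. At the bottom stood Slc7a11 and Gstp1, both at 3.63 TPM, and Nqo1, a quinone reductase widely used as an NRF2 reporter gene, at 1.56 TPM. Nqo1 rested on only 9 to 20 recovered reads in a library, so its level was poorly measured.

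In M2 against Ctrl, 11 of the 35 genes fell, 1 rose and 23 did not pass the test. The 11 were Nfe2l2 itself, the cystine transporter gene Slc7a11, Srxn1, the peroxiredoxins Prdx1, Prdx4 and Prdx5, Sod2, Cat, Me1, Blvra and Esd, and the gene that rose was Tkt. Over all genes tested, 12.6% passed, 6.88% higher and 5.75% lower. With shared reads separated, 8 fell and 1 rose, against 9.09% of all genes (4.86% higher and 4.23% lower). No Ctrl or M2 value and no M2 minus Ctrl difference changed in that setting. The spread is estimated over all 9 libraries, so the Q11 libraries that share reads enter the p-values of this comparison too. In mean TPM, Slc7a11 fell by 44.6%, Prdx5 fell by 25.4%, Nfe2l2 fell by 21.1%, Prdx1 fell by 19.9% and Me1 fell by 14.9%. The other falls were smaller than these. The median difference over the 35 genes was -0.04, against -0.00 over all genes tested. Every M2 library lay below every Ctrl library in 15 of the 35 genes and above in 4, against 13.9% and 14.5% of all genes. Leaving out 1 library at a time left 6 to 12 of the 35 genes called: 7 without Ctrl replicate 1 or 2, and 6 without Ctrl replicate 3, M2 replicate 1 or M2 replicate 3. The calls over all genes also dropped, from 1794 with every library. They were 1146, 1327 and 1178 without Ctrl replicate 1, 2 and 3, and 1222 and 1357 without M2 replicate 1 and 3. Nfe2l2, Prdx1, Prdx5, Cat and Me1 kept their call in all 20 alternative settings and Slc7a11 in all 19 that tested it. The other 6 calls were each lost without any 1 of several libraries, Ctrl replicate 3, M2 replicate 1 and M2 replicate 3 in each case. Ctrl replicate 1 was another for Srxn1, Prdx4, Sod2, Tkt and Esd, Ctrl replicate 2 for Srxn1, Prdx4, Sod2, Blvra and Esd, M2 replicate 2 for Srxn1 and Blvra, Q11 replicate 2 for Srxn1, Prdx4 and Blvra, and Q11 replicate 3 for Srxn1, Prdx4 and Esd. Over all alternatives their highest adjusted p lay between 0.0626 (Tkt) and 0.112 (Srxn1).

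**Figure D1:**
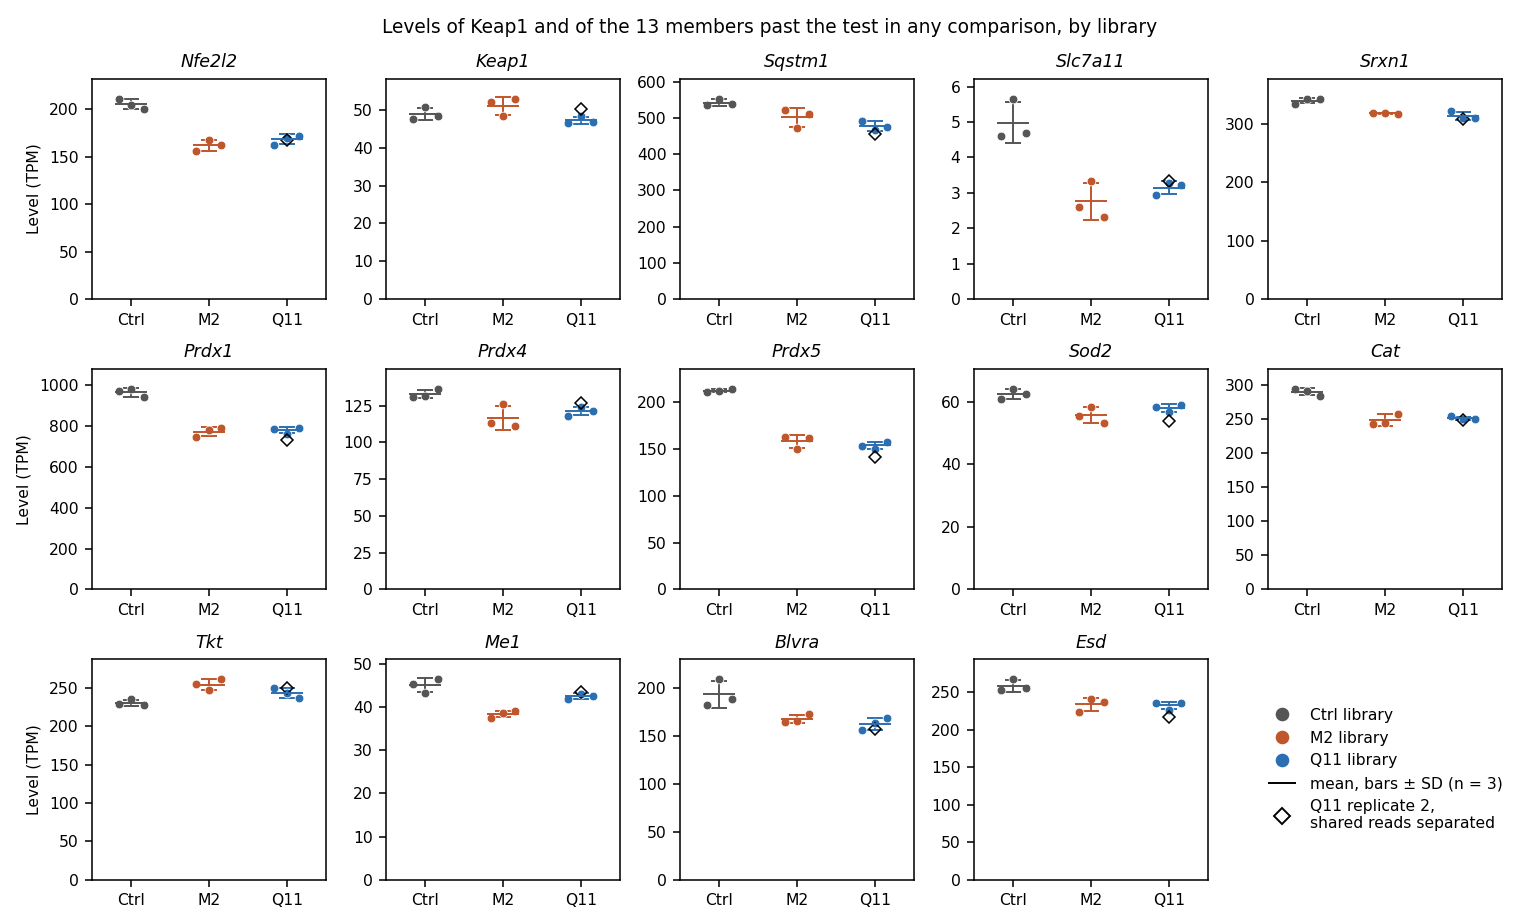
Level of Keap1 and of the 13 genes that passed in any comparison, in TPM from 0, with 1 point per library, the group mean and SD (n = 3) and an open diamond for Q11 replicate 2 with shared reads separated. In Nfe2l2, Prdx1, Prdx5 and Cat the M2 and Q11 points lie together, below all Ctrl points, and in Me1 the deposited Q11 points lie between, while the separated Q11 replicate 2 (43.6 TPM) is above the lowest Ctrl library (43.4 TPM).

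Of the 3 genes of NRF2 and its control, Nfe2l2 fell and Keap1 and Sqstm1 did not pass. Nfe2l2 (chr2:75675513-75704641, GRCm38) stood at 211, 205 and 201 TPM in the Ctrl libraries, 156, 168 and 163 TPM in the M2 libraries and 163, 170.2 and 172 TPM in the Q11 libraries. Every cytokine-treated library, with or without Q11, was below every Ctrl library. In M2 against Ctrl it fell by 0.34 (95% interval -0.42 to -0.26, adjusted p = 4.84e-04), and with shared reads separated the adjusted p was 7.16e-04. Keap1, which encodes the repressor, stood at 47.6, 50.7 and 48.3 TPM in the Ctrl libraries, 52.1, 48.4 and 52.9 TPM in the M2 libraries and 46.6, 48.4 and 46.7 TPM in the Q11 libraries. The Ctrl and M2 ranges overlapped, and the difference was 0.06 (95% interval -0.03 to 0.16, adjusted p = 0.389). Keap1 shares 10.9% of its exon length with a gene on the other strand, Gm16754, which averaged 1.66 to 2.11 TPM in the 3 groups. Sqstm1 encodes p62, an autophagy receptor that sequesters KEAP1 and is itself an NRF2 target. Its levels were 537, 553 and 538 TPM in the Ctrl libraries, 522, 472 and 511 TPM in the M2 libraries and 493, 466 and 474 TPM in the Q11 libraries. The M2 libraries lay below the Ctrl libraries, but the difference of -0.11 (95% interval -0.20 to -0.02) did not pass (adjusted p = 0.104). Sqstm1 shares 17.3% of its exon length with Mrnip on the other strand, which averaged 4.24 to 5.45 TPM in the 3 groups.

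In the glutathione branch 1 of 5 genes fell. Slc7a11 encodes the light chain of the system xc- exchanger, which imports the cystine needed to make glutathione. It stood at 4.61, 5.65 and 4.68 TPM in the Ctrl libraries, 2.60, 3.34 and 2.33 TPM in the M2 libraries and 2.94, 3.27 and 3.22 TPM in the Q11 libraries, and all M2 libraries lay below all Ctrl libraries. It fell by 0.67 (95% interval -0.98 to -0.37, adjusted p = 0.0123, with shared reads separated 0.0188). These levels rest on 311, 398 and 318 recovered reads in Ctrl and 182, 218 and 155 in M2. A stretch of 373 of the 9223 bases of its transcript is 96.2% identical to the tubulin gene Tuba1b, which averaged 1798 TPM in Ctrl and 1934 TPM in M2, so some reads may be shared and the level is uncertain to that extent. The enzymes downstream of cystine import did not pass. Gclc and Gclm, the 2 subunits of the rate-limiting glutamate-cysteine ligase, had differences of 0.08 (95% interval -0.06 to 0.22) and -0.03 (95% interval -0.15 to 0.10). Gss, the synthase of the last step, and Gsr, which reduces oxidised glutathione, had differences of 0.05 and -0.00. Gsr read 138 TPM in each Ctrl library and 132 to 145 TPM in M2. Over the 9 libraries Gclc read 77.4 to 94.5 TPM, Gclm 35.5 to 41.1 TPM and Gss 18.8 to 23.4 TPM. The glutathione peroxidases Gpx1, which reduces hydrogen peroxide (range 750.3 to 867 TPM), and Gpx4, which reduces lipid peroxides in membranes (394 to 425 TPM), did not pass either, at -0.04 (adjusted p = 0.606) and 0.04 (adjusted p = 0.446). A stretch of 733 of the 995 bases of the Gpx4 transcript is 99.7% identical to Gpx4-ps2, which averaged 8.76 to 12.9 TPM in the 3 groups, so some reads may be shared.

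The peroxiredoxins, which reduce hydrogen peroxide with electrons from thioredoxin, split into 3 that fell and 3 that did not pass. Prdx5 (chr19:6906697-6910106), whose product is found in mitochondria, peroxisomes and the cytosol, stood at 211, 212 and 214 TPM in the Ctrl libraries, 163, 151 and 162 TPM in the M2 libraries and 154, 150.1 and 158 TPM in the Q11 libraries. It fell by 0.42 (95% interval -0.50 to -0.34, adjusted p = 1.30e-04, with shared reads separated 7.75e-04), which was the smallest adjusted p among the 35 genes. The Ctrl libraries lay within 3 TPM of each other and far above all 6 others. Prdx5 shares 19.1% of its exon length with Trmt112 on the other strand, and without strand information their reads cannot be told apart there. Trmt112 went the other way, from 90.0 TPM in Ctrl to 108 TPM in M2 (0.26, adjusted p = 0.0296). Prdx1 (chr4:116685544-116700822), the abundant cytosolic form, stood at 971, 982 and 943 TPM in the Ctrl libraries, 749, 781 and 790.2 TPM in the M2 libraries and 786, 764 and 789.8 TPM in the Q11 libraries. It fell by 0.32 (95% interval -0.38 to -0.25, adjusted p = 1.81e-04, separated 9.17e-04). Its processed pseudogenes Gm21399 and Gm7204, with 597 aligned bases at 97.5% to 98.3% identity, were each read below 1 TPM on average in every group. Prdx4, the form of the endoplasmic reticulum, stood at 131, 132 and 136 TPM in the Ctrl libraries, 113, 126 and 111 TPM in the M2 libraries and 118, 124 and 122 TPM in the Q11 libraries. It fell by 0.19 (95% interval -0.30 to -0.08, adjusted p = 0.0319, separated 0.0491), with M2 replicate 2 closer to Ctrl than the other M2 libraries.

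The means of the other peroxiredoxins were higher in M2 than in Ctrl, none past the test. Prdx3, the mitochondrial form, read 203 to 230.5 TPM in Ctrl, 234 to 263 TPM in M2 and 245 to 254 TPM in Q11. Every M2 library was above every Ctrl library, yet the difference of 0.17 (95% interval 0.05 to 0.30) did not pass (adjusted p = 0.0828). Prdx3 did pass as a rise in 2 of the 20 alternatives. These were limma-voom on recovered reads (adjusted p = 0.0245) and limma-voom with shared reads separated (adjusted p = 0.0362). Prdx6, the 1-cysteine form that uses glutathione, had a difference of 0.13 (95% interval 0.03 to 0.23, adjusted p = 0.1), again without overlap (range 85.7 to 103 TPM over all libraries). Prdx2, another cytosolic form, had a difference of 0.02 (95% interval -0.05 to 0.10, range 158 to 172 TPM). Whether the fall of Prdx1, Prdx4 and Prdx5 differs from the values of the other 3 was not tested. Summed over the 6 genes, peroxiredoxin transcripts made up 1780 ± 22.9 TPM in Ctrl, 1556 ± 41.2 TPM in M2 and 1559 ± 21.2 TPM in Q11 (SD, n = 3). With shared reads separated the Q11 value was 1546 ± 44.6 TPM, so the deposited Q11 spread, which includes 2 libraries with shared reads, is the smaller one.

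**Figure D2:**
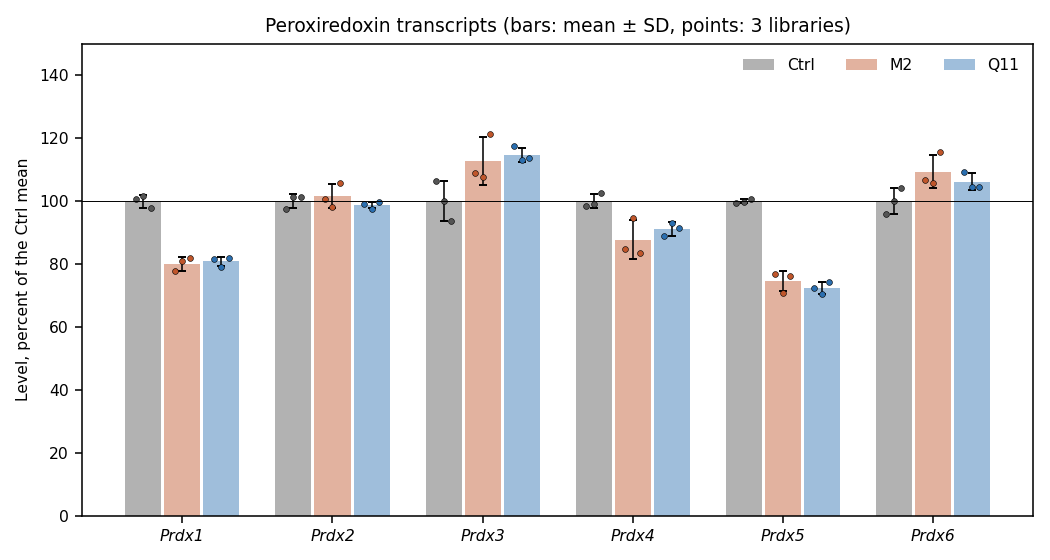
Level of the 6 peroxiredoxin genes in each library as a percentage of the mean Ctrl TPM of that gene, with 1 point per library and bars at the group mean ± SD (n = 3). M2 and Q11 libraries lie at 70.6% to 81.9% for Prdx1 and Prdx5, and at 104.5% or more for Prdx3 and Prdx6.

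In the thioredoxin system Srxn1 fell and the others did not pass. Srxn1, sulfiredoxin, restores over-oxidised peroxiredoxins and stood at 335, 343 and 343 TPM in the Ctrl libraries, 319, 318 and 317 TPM in the M2 libraries and 322, 309.5 and 311 TPM in the Q11 libraries. It fell by 0.09 (95% interval -0.15 to -0.04, adjusted p = 0.0312), and with shared reads separated it no longer passed (adjusted p = 0.0567). The groups did not overlap, but the change was small: the mean TPM fell by 6.39%. Txn1 (range 1107 to 1256 TPM) had a difference of -0.05 (95% interval -0.15 to 0.05) and Txnrd1, the cytosolic thioredoxin reductase (range 149.6 to 169 TPM), of -0.10 (95% interval -0.17 to -0.03, adjusted p = 0.0804).

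Among the enzymes for superoxide and hydrogen peroxide, Cat and Sod2 fell. Catalase, which splits hydrogen peroxide in peroxisomes, stood at 294, 292 and 284 TPM in the Ctrl libraries, 243, 244 and 258 TPM in the M2 libraries and 254, 249 and 249.7 TPM in the Q11 libraries. It fell by 0.22 (95% interval -0.29 to -0.16, adjusted p = 0.00146, separated 0.00243), with a wide gap between the Ctrl libraries and the rest. Sod2, the mitochondrial superoxide dismutase, stood at 60.9, 64.0 and 62.6 TPM in the Ctrl libraries, 55.5, 58.4 and 53.2 TPM in the M2 libraries and 58.3, 56.6 and 59.0 TPM in the Q11 libraries. It fell by 0.16 (adjusted p = 0.0296), a call lost with shared reads separated (adjusted p = 0.0691). Sod1, the cytosolic enzyme (range 108 to 125 TPM), had a difference of 0.01 (95% interval -0.10 to 0.11).

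Of the 5 NADPH genes 1 rose and 1 fell. Tkt, transketolase of the non-oxidative pentose phosphate pathway, was the gene that rose, and stood at 229, 235 and 227 TPM in the Ctrl libraries, 255, 247 and 261 TPM in the M2 libraries and 249, 243 and 237 TPM in the Q11 libraries. All M2 libraries lay above all Ctrl libraries, by 0.14 (95% interval 0.07 to 0.21, adjusted p = 0.0179, separated 0.0318). Taldo1, transaldolase of the same branch (range 645 to 712 TPM), had a difference of 0.09 (95% interval 0.02 to 0.16, adjusted p = 0.102). The enzymes of the oxidative branch, which make NADPH, were close to level: G6pdx at 0.00 (95% interval -0.05 to 0.06) and Pgd at -0.04 (95% interval -0.11 to 0.04), with ranges of 449 to 478 TPM and 175 to 190.4 TPM. G6pdx shares 13.6% of its exon length with Ikbkg on the other strand, which averaged 20.9 to 23.0 TPM in the 3 groups. Me1, the cytosolic malic enzyme and another source of NADPH, stood at 45.5, 43.4 and 46.5 TPM in the Ctrl libraries, 37.6, 38.6 and 39.0 TPM in the M2 libraries and 41.9, 43.1 and 42.7 TPM in the Q11 libraries. In M2 against Ctrl it fell by 0.23 (95% interval -0.31 to -0.15, adjusted p = 0.00438, separated 0.00808). Its near copies Gm7049, Gm48795 and Gm7329 each averaged under 1 TPM.

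Of the 8 genes of conjugation, reduction of quinones and bile pigments, ester hydrolysis and export, 2 fell. Blvra, which reduces biliverdin to bilirubin, stood at 183, 209 and 189 TPM in the Ctrl libraries, 165, 166 and 173 TPM in the M2 libraries and 157, 163 and 169 TPM in the Q11 libraries. It fell by 0.20 (95% interval -0.32 to -0.09, adjusted p = 0.0345, separated 0.0474), with Ctrl replicate 2 the highest library. Esd, S-formylglutathione hydrolase, stood at 253, 267 and 255 TPM in the Ctrl libraries, 224, 241 and 237 TPM in the M2 libraries and 235, 227 and 235 TPM in the Q11 libraries. It fell by 0.14 (adjusted p = 0.0301), a call lost with shared reads separated (adjusted p = 0.0743). The copies of Esd elsewhere in the genome that were found in the table each averaged under 1 TPM. Blvrb, a flavin and biliverdin reductase (range 121 to 137 TPM), had a difference of 0.03, and Abcc1, an exporter of glutathione conjugates (range 41.1 to 47.8 TPM), of -0.10 (95% interval -0.19 to -0.01, adjusted p = 0.141). Of the glutathione S-transferases, Gstm1 had a difference of -0.19 (95% interval -0.36 to -0.03, adjusted p = 0.13) and the membrane-bound Mgst1 of 0.16, with ranges of 61.8 to 83.5 TPM and 15.0 to 22.1 TPM. Gstp1, at 2.76 to 5.69 TPM, has near copies (Gstp2 and Gstp-ps) that can take or give reads, and its values are uncertain for that reason. Nqo1, at 1.15 to 2.69 TPM, had an interval of -0.38 to 0.73, too wide to show a fall or a rise. At so low a level log2(TPM + 1) understates a change, so this interval cannot be set against the differences of higher genes.

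The 23 genes that did not pass were mostly measured tightly. For 21 of them the 95% interval lay within 0.5 of zero on the log2 scale, the exceptions being Nqo1 and Gstp1. A miss of the threshold does not show that a gene was level, and for several of the 23 the groups did not overlap. Among them Sqstm1, Txnrd1 and Prdx3 passed in some of the alternative fits.

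**Figure D3:**
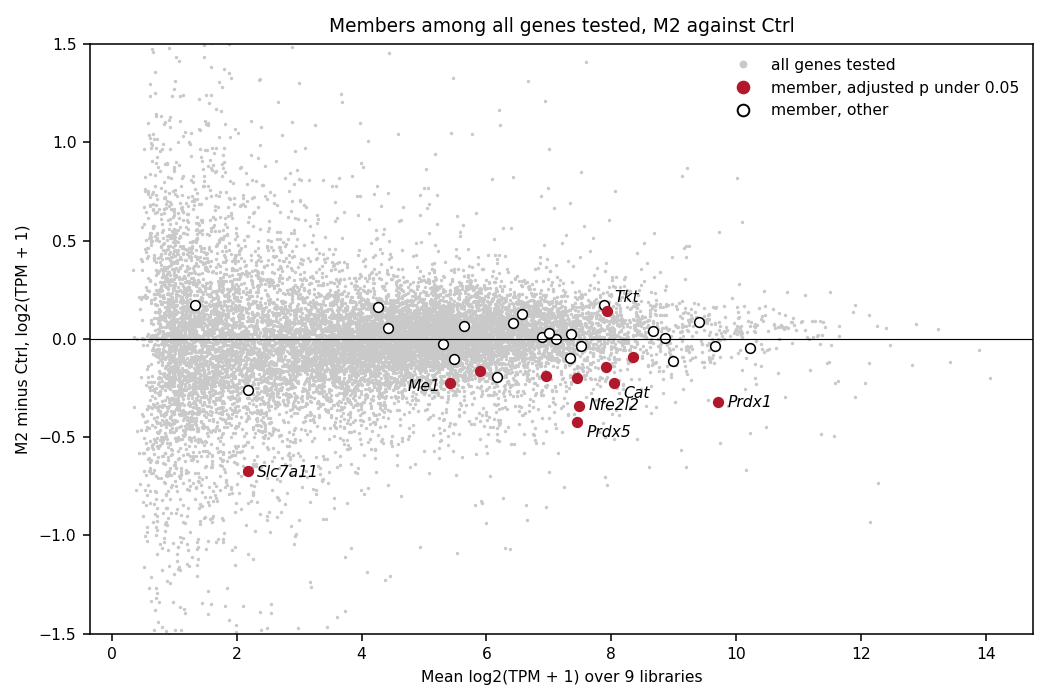
Difference M2 minus Ctrl on the log2(TPM + 1) scale against the mean level over 9 libraries for all 14207 genes tested (grey), with the 35 genes as circles, filled where they passed. All 35 lie within 1 log2 unit of zero, most of the filled ones below it, and the 85 genes beyond 1.5 log2 units are outside the plotted range.

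In Q11 against M2 none of the 35 genes passed, and none of the 14207 genes did (0.0% called by limma, with or without shared reads separated). The smallest adjusted p was 0.309 among the 35 genes and 0.213 among all genes. At an unadjusted p below 0.05 there were 4 of the 35 genes, against 1620 of all genes (11.4%), and with shared reads separated 1, against 8.1%. In limma-voom on the recovered reads 2 of all genes passed and none of the 35. For 33 of the 35 genes the 95% interval of the Q11 minus M2 difference lay within 0.5 of zero, again with Nqo1 and Gstp1 as exceptions. That bound is wider than most changes called above. In M2 against Ctrl the intervals of Nfe2l2 (-0.42 to -0.26) and Prdx1 (-0.38 to -0.25) also lay within it. The count therefore says nothing about changes of that size, and it rests on the deposited Q11 values with their shared reads. The median difference was -0.01, against -0.00 over all genes.

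The 4 genes with an unadjusted p below 0.05 were Me1, Keap1, Gpx1 and Taldo1, and none is more than a value here. Me1 lay above M2 in each Q11 library (41.9, 43.1 and 42.7 against 37.6, 38.6 and 39.0 TPM), by 0.15 (95% interval 0.06 to 0.23, unadjusted p = 0.00303, limma adjusted p = 0.309, separated 0.572). Its mean in Q11 was between those of M2 and Ctrl. Keap1 had a difference of -0.11 (95% interval -0.21 to -0.01, adjusted p = 0.389). With Q11 replicate 2 at its deposited 48.4 TPM the Q11 libraries lay just below the lowest M2 library, at 48.4 TPM, and at 50.3 TPM with shared reads separated they overlapped. Gpx1 had a difference of -0.09 (95% interval -0.18 to -0.00, adjusted p = 0.416) and Taldo1 of -0.07 (95% interval -0.14 to -0.00, adjusted p = 0.435). Q11 and M2 libraries did not overlap in 1 gene on the higher side, Me1, and in 3 on the lower, Keap1, Gpx1 and Blvrb. Over all genes these shares were 9.18% and 8.43%. With shared reads separated the counts were 1 and 2, against 6.93% and 5.69%.

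In Q11 against Ctrl 9 of the 35 genes fell and none rose, against 10.7% of all genes called (5.19% higher and 5.53% lower). With shared reads separated 8 fell, against 7.8% of all genes (3.74% higher and 4.06% lower). Leaving out 1 library at a time left 4 to 11 called, with 5 without Ctrl replicate 2, 4 without Q11 replicate 2 and 5 without Q11 replicate 3. Over all genes these 3 fits called 1067, 792 and 771, against 1524 with every library. This comparison uses the same Ctrl libraries as M2 against Ctrl, so the values are set side by side and no overlap between them is counted as a result. Nfe2l2 fell by 0.28 (adjusted p = 0.00144; -0.34 in M2), Prdx5 by 0.46 (adjusted p = 8.06e-05; -0.42 in M2), Prdx1 by 0.31 (adjusted p = 2.41e-04; -0.32 in M2) and Cat by 0.21 (adjusted p = 0.00235; -0.22 in M2). With shared reads separated these 4 had adjusted p-values of 0.00182, 3.47e-04, 9.58e-04 and 0.00383. Blvra fell by 0.25 (adjusted p = 0.0161), Esd by 0.15 (0.0266) and Srxn1 by 0.11 (0.0159). Sqstm1 fell by 0.18 (95% interval -0.27 to -0.09, adjusted p = 0.0195, separated 0.028), while its M2 value had not passed. Whether Q11 and M2 differ in Sqstm1 was tested directly above and did not pass (-0.07, 95% interval -0.16 to 0.02). Slc7a11 fell by 0.52 (adjusted p = 0.0381) and lost its call with shared reads separated (0.0577). The calls of Sqstm1, Slc7a11, Srxn1, Blvra and Esd were each lost without Q11 replicate 2. They were also lost without Q11 replicate 3 except for Blvra, without Q11 replicate 1 for Slc7a11, Blvra and Esd, without Ctrl replicate 2 except for Blvra, without Ctrl replicate 1 for Sqstm1 and Slc7a11, without Ctrl replicate 3 for Slc7a11, Srxn1 and Esd, and without M2 replicate 1 for Slc7a11. Nfe2l2, Prdx1, Prdx5 and Cat kept their call in all 20 alternatives. Prdx4, Sod2, Me1 and Tkt, called in M2 against Ctrl, had differences of -0.13, -0.11, -0.08 and 0.07 and did not pass. Prdx3 was higher by 0.20 (95% interval 0.07 to 0.32, limma adjusted p = 0.0555) and Gpx1 lower by 0.13 (limma adjusted p = 0.0704). Neither passed in the fit used here, but each did in 6 of the 20 alternatives. Prdx4 passed in 2 alternatives, and Sod2 and Abcc1 in 1 each, all as falls. Every Q11 library lay below every Ctrl library in 17 of the 35 genes and above in 4, against 15.8% and 16.3% of all genes. The median of the 35 genes was -0.06, against 0.00 over all genes.

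**Figure D4:**
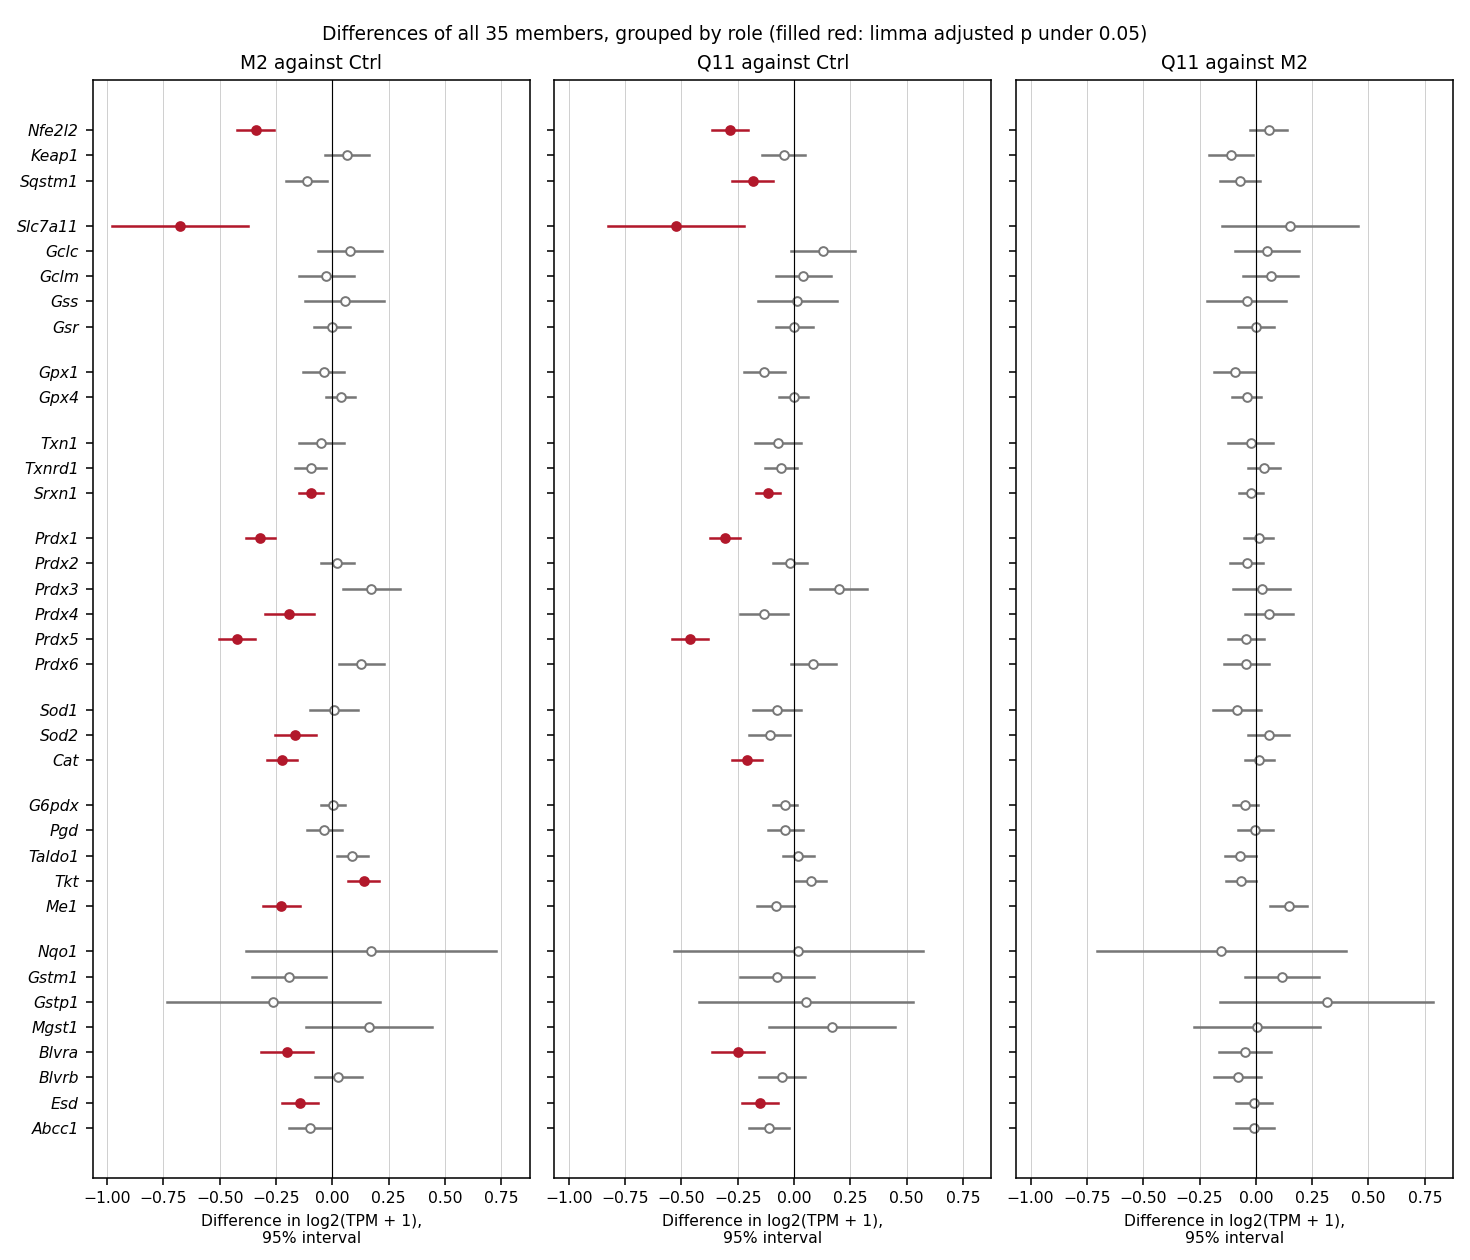
Difference of each of the 35 genes on the log2(TPM + 1) scale in M2 minus Ctrl, Q11 minus Ctrl and Q11 minus M2, with 95% intervals from limma, filled where the adjusted p was below 0.05. Slc7a11, Prdx5, Nfe2l2 and Prdx1 lie lowest against Ctrl, and all Q11 minus M2 points are open.

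Beyond the 35 genes, 76 further genes of the same pathways were listed, and 61 of them passed the filter. In M2 against Ctrl 8 rose and 6 fell (6 and 4 with shared reads separated), against 12.6% of all genes called (9.09% separated), with a median of 0.04. None passed in Q11 against M2, and in Q11 against Ctrl 6 rose and 6 fell (3 and 4 with shared reads separated), against 10.7% of all genes (7.8% separated). The 6 with the smallest p in M2 against Ctrl are named. Txnip, the inhibitor of thioredoxin, averaged 172 ± 2.35 TPM in Ctrl and 135 ± 6.23 TPM in M2 (SD, n = 3) and fell by 0.35 (limma adjusted p = 4.11e-04). Abcc3, an exporter of conjugates, went from 111 ± 1.48 to 91.2 ± 1.93 TPM (limma adjusted p = 5.10e-04), and Msrb1, a methionine sulfoxide reductase, from 312 ± 14.2 to 239 ± 9.05 TPM (limma adjusted p = 9.48e-04). In the other direction, the glutaredoxins Glrx and Glrx5 and the mitochondrial thioredoxin Txn2 rose. Glrx went from 48.0 ± 1.75 to 62.8 ± 1.68 TPM (limma adjusted p = 4.72e-04), Glrx5 from 91.8 ± 1.39 to 105 ± 2.83 TPM (0.00336) and Txn2 from 122 ± 4.79 to 139 ± 1.20 TPM (0.00587). In the Q11 libraries these 6 averaged 133, 86.7, 231, 61.9, 101 and 133 TPM, in the order named. Hmox1, heme oxygenase and a classical NRF2 target, averaged 308 ± 18.5 TPM in Ctrl, 298 ± 12.1 TPM in M2 (SD, n = 3) and 275 TPM in Q11. It was named for its role and did not pass in M2 against Ctrl (limma adjusted p = 0.605).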

How the data were processed

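Poly-A RNA was sequenced from 9 J774A.1 libraries. The authors deposited 1 table of TPM per gene and library, per the file headers. Per the submitters' processing notes, HISAT2 2.0.5, StringTie 1.3.3b and GRCm38 are named, with no role stated. Annotation and counting settings are not given in the sources used here. Per the labels' protocols, a NEBNext Ultra kit was used, a kind that does not mark strand. Of 26157 gene IDs, GENCODE M21 held 25594.

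Multiplied by exon length, 98.8% to 99.2% of low TPM values (up to 20 reads, tolerance 0.1) were whole numbers of a unit fixed per library, and reads were recovered from this. The test took genes that reached 1 TPM in 3 or more libraries. limma 3.58.1 in R 4.3.3 was fitted to log2(TPM + 1) of all 9 libraries (eBayes with trend, two-sided, 6 residual degrees of freedom). Near copies were searched with blastn 2.17.0. The fit was tested on simulated data.

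The genes and lists were chosen with earlier results of these data known. Values in every library are printed for genes that passed in any comparison and for the NRF2 regulators, other genes by range, and up to 6 further pathway genes by smallest p. The alternatives were another pseudocount (0.1 TPM), other filters (none, 5 TPM), quantile and median ratio scaling, no variance trend, only the groups compared, shared reads separated, a replicate block, limma-voom on recovered reads, and leaving out each library. limma-voom with shared reads separated was added after seeing the data.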

Additional observations from a re-analysis of the deposited data

How the results depend on the processing

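No value of the 35 genes changed sign under any alternative where it had passed. In M2 against Ctrl, 1110 of all genes and 7 of the 35 passed with only the 2 groups compared. That fit had fewer libraries and 13601 genes tested. Without the variance trend 1312 of all genes and 6 of the 35 passed, against 1794 and 12 in the fit used above. With limma-voom on recovered reads 2260 of all genes and 15 of the 35 passed, 2 higher and 13 lower. Sqstm1, Txnrd1 and Prdx3 had not passed in the fit used above. They passed in 3, 2 and 2 of the 20 alternatives, Prdx3 as a rise and the others as falls. In Q11 against M2 the count over all genes was 3 with no filter, 2 without the trend and 2 with limma-voom on recovered reads. None of the 35 passed there in any alternative. Leaving out 1 library at a time gave 1146 to 1656 genes in M2 against Ctrl, lowest without Ctrl replicate 1 (1146) and Ctrl replicate 3 (1178). It gave 771 to 1616 in Q11 against Ctrl, with 792 without Q11 replicate 2 and 771 without Q11 replicate 3, and 0 to 2 in Q11 against M2. Of the 35 genes these fits called 6 to 12, 4 to 11 and 0 to 0. Where a group was left with 2 libraries, the fit shared 1 estimate of spread with the other groups.

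The calls of Prdx4, Sod2, Blvra, Esd and Srxn1 in M2 against Ctrl were lost in 9 to 13 of the 20 alternatives each, and their intervals lie close to zero. Without the variance trend and with only the 2 groups compared, each of these calls was lost at an unchanged difference. In those fits the spread was estimated otherwise, and with only the 2 groups the genes tested also differed. The cause of the other losses was not tested.

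The replicate block, which treats equal numbers as pairs, gave 1335, 0 and 1086 genes and 9, 0 and 8 of the 35 in M2 against Ctrl, Q11 against M2 and Q11 against Ctrl. Same-numbered libraries did not vary together (correlations -0.03 to 0.04, and 1 of 9 libraries matched its own number best). With 3 libraries per group, and shared reads in the deposited Q11 values, this does not settle whether equal numbers are pairs.

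Nqo1 and Gstp1 rest on few reads, and their intervals are wider than those of the other genes.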
